A study of Zea mays with 18 samples.

Results

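The transcripts described here are the 200 whose level varied least over all samples of a maize ear study. They were chosen by their coefficient of variation, the standard deviation (SD) divided by the mean, over 18 samples, among 21833 identifiers with a mean normalized signal of at least 100, and make up 0.916% of those and fewer still of the 76612 identifiers measured. RNA was sequenced from ear inflorescence at the V16 leaf stage and from ear at R1, the silking stage, in the elite hybrid NN6306 grown in an Illinois field in 2012. The 3 genotypes were a control labelled wild type and events 1 and 2, independent transformants that carry ATHB17 from Arabidopsis behind the rice actin promoter. The events express ATHB17Δ113, a shortened protein of the HD-Zip II class, and their vector also held the CP4 EPSPS marker for glyphosate tolerance. Where traits for insect protection and glyphosate tolerance were present, the paper states that events and control shared them. Each of the 6 groups held 3 biological replicates. All plants shared 1 hybrid background and 1 season, and the 2 events are the 2 insertions tested, and steadiness in any other line, organ or treatment was not measured.

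A reference gene is one whose transcript is taken as constant, so that other transcripts can be measured against it, as in quantitative PCR. Genes that every cell uses, such as those for actin, tubulin, GAPDH, elongation factor 1-alpha and ubiquitin, have long served this purpose, although their RNA level can move with growth and cell division. Between V16 and R1 the maize ear passes from a young inflorescence that bears meristems and spikelets to an organ with silks ready for pollination.

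Of 8 marker genes of the young inflorescence, 6 had the higher median in ear inflorescence, while td1 was higher in ear (561 to 795 against 287 to 580) and fea2 nearly even, with medians of 880.5 in ear and 821 in inflorescence. The homeobox gene kn1 of meristems was present in both, at 4436 to 13902 in inflorescence and 5149 to 6777 in ear. The barren stalk gene ba1 stood at 131 to 561 in inflorescence against 2.52 to 16.9 in ear, and ramosa1 (ra1) at 0.80 to 17.3 against 0 in every ear sample. The Rubisco small subunit gene ssu1 had 265 to 563 in inflorescence and 1195 to 2775 in ear. In whole organs, fewer cells of a type and less RNA per cell cannot be told apart. Samples held 27294141 to 52649731 assigned reads, a read being counted on each transcript it mapped to. In 1 library, event 1 ear inflorescence replicate 1, the median identifier lay 48.3% from its own mean, against 13.2% to 29.7% in the other 17.

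In the deposited values the 200 were nearly flat. Their coefficients of variation ran from 4.60% to 8.34%, with a median of 7.57%, while the median over all identifiers with a mean of at least 100 was 28.4%. The highest sample exceeded the lowest by 1.16 to 1.56 times, with a median of 1.32, and in 199 of the 200 by less than 1.5 times. The same ratio had a median of 2.84 over all 21833. These values are what the selection used, and they describe the 200 without testing anything. The limit fell within a dense part of the order. The 200th, GRMZM2G160996, had 8.34% and the next in the order, GRMZM2G016106, also 8.34%, the difference being 0.0039 percentage points, and the splicing factor RS2Z35 (GRMZM2G099186) missed the limit with 8.36%.

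The 200 lay above the typical level. Their means ran from 101 to 11364, with a median of 1029 against 454 for all 21833. Of the 200, 91 had a mean between 1000 and 5000, which is 45.5% against 23.4% of all, and 6 had a mean of 100 to 200, which is 3.0% against 23.9%. Counting error, calculated from the reads, is larger for a low transcript and had a median of 3.14% for the 200. Whether it accounts for the few low transcripts among them was not tested. Counting made up a median of 18.04% of the variance of the 200 and more than 50% in 25 of them, against 2.41% over all 21833. The most abundant of the 200 was GRMZM2G164352 with a mean of 11364, followed by GRMZM2G122135 with 9597 and cesa5 (GRMZM2G111642) with 8838, whose product is a catalytic subunit of cellulose synthase.

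**Figure D1:**
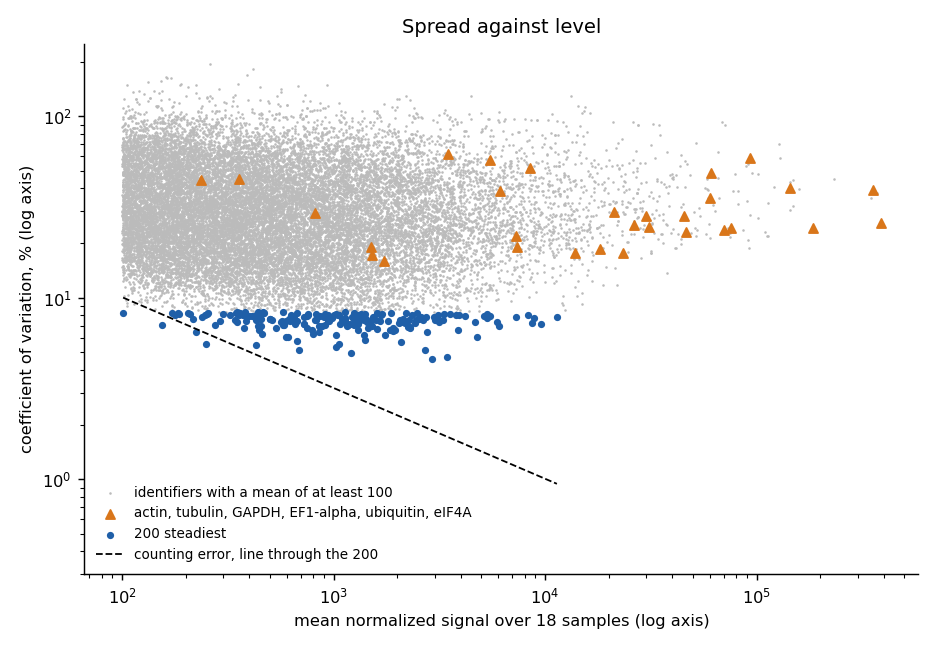
Coefficient of variation over 18 samples (percent, log axis) against mean normalized signal (log axis) for 21833 identifiers (grey), the 200 steadiest (blue) and 30 identifiers of usual reference genes (orange triangles). The dashed line is the counting error over the range of the 200, which end at 8.34%, while all 30 triangles lie at 15.8% or above.

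The steadiest 10 had coefficients of variation of 4.60% to 5.73%. GRMZM2G422576 led with a mean of 2925 and 4.60%, followed by GRMZM2G084406 with a mean of 3418 and 4.69% and AC233870.1 with 1214 and 4.94%. GRMZM2G068392 had 5.13%. The 10 included tbp1 and GNAT16, which are described next. GRMZM2G069772, GRMZM2G180555, GRMZM2G439203 and GRMZM2G114888 made up the rest, with means of 248 to 2085. The reference table used here gives no gene name for these 8. The geometric mean of the 10, the kind of index that is built from several reference genes, ranged from 1148 to 1218 over the 18 samples, a coefficient of variation of 1.85% and a highest to lowest ratio of 1.06. These 10 were picked for low variation in the same samples and on this scale, and the same index had a coefficient of variation of 19.8% when reads were scaled to the library total, as described further on.

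The first of the 200 with a gene name was tbp1 (GRMZM2G149238), which encodes a TATA-binding protein, the subunit of the general factor TFIID that contacts the TATA box. Its normalized signal in ear inflorescence was 672, 726 and 707 in the control, 672, 679.5 and 645 in event 1 and 655, 663 and 697 in event 2. In ear it was 664, 764 and 729 in the control, 705, 681 and 699.9 in event 1 and 648, 639.6 and 741 in event 2. The lowest and the highest value both came from ear. The tissues overlapped in the control and in event 2, while in event 1 the ear values all lay just above the inflorescence values. The group means of tbp1 lay between 665 ± 17.8 (SD, n = 3) in event 1 ear inflorescence and 719 ± 50.9 (SD, n = 3) in control ear, and its coefficient of variation was 5.15%.

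GNAT16 (GRMZM2G100872) belongs by its name to the GNAT superfamily of N-acetyltransferases, which includes histone acetyltransferases. It had 405, 436 and 452 in control ear inflorescence, 431, 418 and 433 in event 1 and 421, 454 and 468 in event 2. The ear values were 372, 442 and 460.3 in the control, 437, 397 and 447 in event 1 and 425, 425 and 443 in event 2. All groups overlapped, and 1 control ear sample, replicate 1, was the lowest of all. Its coefficient of variation was 5.46% at a mean of 431.

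The SBP-box gene sbp25 (GRMZM2G414805), of a plant transcription factor family many of whose members act in shoot and inflorescence development, was more abundant. Its signal in ear inflorescence was 3134, 2417 and 2724 in the control, 2842, 2657 and 2812 in event 1 and 2696, 2998 and 2415 in event 2. In ear it was 2693, 2705 and 2743 in the control, 2893, 2683 and 2812 in event 1 and 2958, 2853 and 2844 in event 2. The highest and the lowest values of sbp25 both came from ear inflorescence, where the control had 2758 ± 360.0 (SD, n = 3), and the control ear samples were closer together at 2713 ± 26.0 (SD, n = 3). In ear the 3 event 2 values lay above the 3 control values.

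The 200th, GRMZM2G160996, shows what the upper limit of 8.34% looks like. It had 1320.0, 1226 and 1072 in control ear inflorescence, 1222, 1031 and 1130.2 in event 1 and 975, 1129 and 1095 in event 2. In ear it had 1067, 1049 and 1293 in the control, 1199, 1178 and 1155 in event 1 and 1122, 1009 and 1159 in event 2. Its samples differed by up to 1.35 times, and its groups overlapped between the tissues in every genotype.

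**Figure D2:**
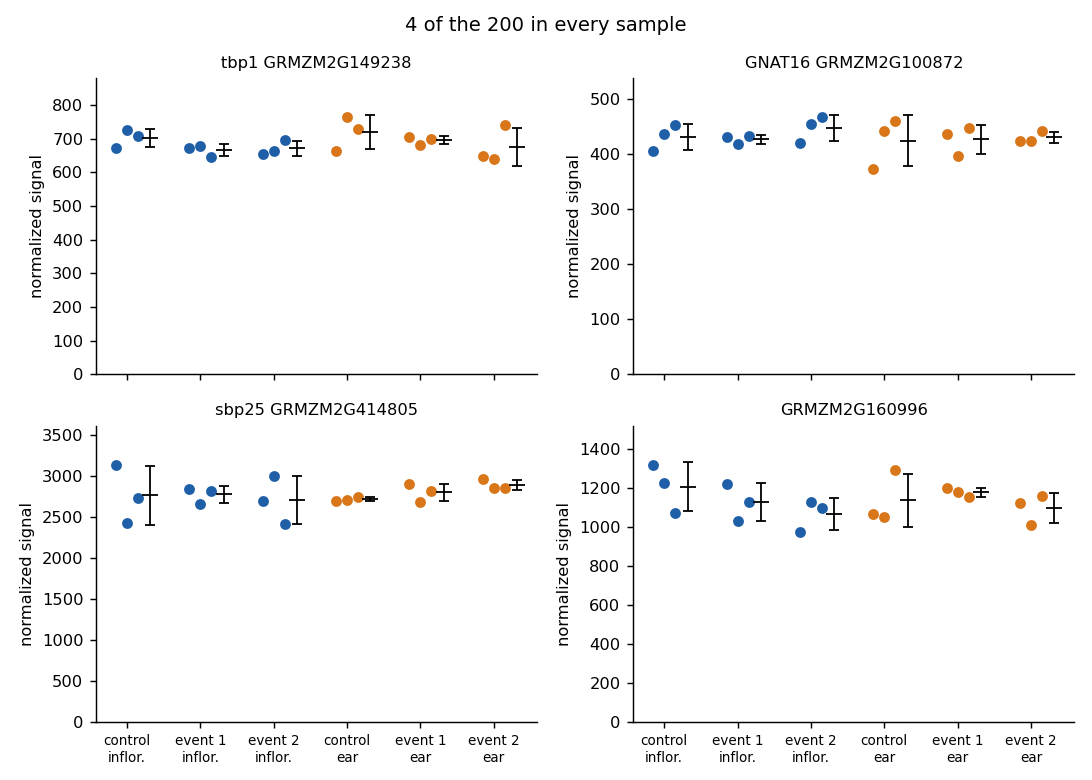
Normalized signal (linear axis from 0) of tbp1, GNAT16, sbp25 and GRMZM2G160996 in every sample, ear inflorescence in blue and ear in orange, with the mean and SD of the 3 replicates beside each group. The points of tbp1 lie between 639.6 and 764, and no group of any of the 4 lies apart from all others.

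What the 200 encode could be told for few of them. Of the 200, 160 (80.0%) matched a RefSeq gene of the assembly Zm-B73-REFERENCE-NAM-5.0, against 60.1% of all 21833, and 19 (9.5%) matched one with a gene name, against 8.70%. The list of the general transcription machinery had 3 of its 11 identifiers among the 200, more than any other list. Beside tbp1 these were tbp2 (GRMZM2G161418), for the other TATA-binding protein, with a mean of 2427 and 7.27%, and MED6.1 (GRMZM2G017537), a subunit of the Mediator complex that links transcription factors to RNA polymerase, with a mean of 1093 and 7.67%. The other 8 of this list varied more, and its median was 36.5%. As both TATA-binding protein transcripts could share reads under the counting used, their values may not be wholly separate.

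Signalling proteins made up a further group, each with 1 identifier. They included PP2C28 (GRMZM2G071087), a protein phosphatase 2C, with a mean of 454 and 7.63%, and akin1 (GRMZM2G047774), a regulatory subunit of the SnRK1 energy-sensing kinase, with 1057 and 8.04%. CPK21 (GRMZM2G463464), a calcium-dependent protein kinase, had a mean of 3319 and 8.12%, and the MAP kinase kinase mek1 (GRMZM2G167856) had 1859 and 8.21%. Of the families they belong to, the MAP kinase cascade had 5 of 8 identifiers in the steadiest 10% of all identifiers, SnRK kinases and subunits 3 of 9, calcium-dependent protein kinases 2 of 7 and PP2C phosphatases 1 of 18. Among all 1900 identifiers with a gene name that share was 10.1%. Such shares were not limited to signalling. Among lists with no identifier selected, SR splicing factors had 5 of 17 and autophagy genes 3 of 14. The MYB genes, a further list of regulators, had 3 of 20. Histone deacetylases had 1 of 9 and ribosomal proteins 2 of 28, and the remaining such lists had 0. The share rests on the same order as the selection, so it is a description and sets no family apart.

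Enzymes of metabolism among the 200 were MMT1 (GRMZM2G098039), a methionine S-methyltransferase, with a mean of 1659 and 7.42%, and zds1 (GRMZM2G454952), the zeta-carotene desaturase of carotenoid synthesis, with 399.96 and 7.92%. The cellulose synthase cesa5 was the only 1 of 13 listed identifiers of its family to be included, at 7.74%, while the median of that list was 48.3%. The names tacs1, GATA, ak1, CADR3, AUX6 and TPS3 were also among the 19, with coefficients of variation of 7.13% to 7.93%.

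Several lists of families that also serve all cells had no identifier among the 200. They hold only identifiers with a matching gene symbol, and 19 of the 200 had a gene name, so unnamed ones could belong to these families. The lists were ribosomal proteins (0 of 28, lowest 12.3%), histones (0 of 7, lowest 17.9%), histone deacetylases (0 of 9, lowest 12.4%), SR splicing factors (0 of 17, lowest 8.36%), heat-shock proteins (0 of 14, lowest 14.5%) and autophagy genes (0 of 14, lowest 9.20%). Among regulators of development the MADS genes (0 of 24), auxin response factors (0 of 17) and bHLH genes (0 of 21) also had none, and the SBP-box list had 1 of 22. As 0.916% of all identifiers were selected, a count of 0 or 1 in lists this short sets no family apart.

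**Figure D3:**
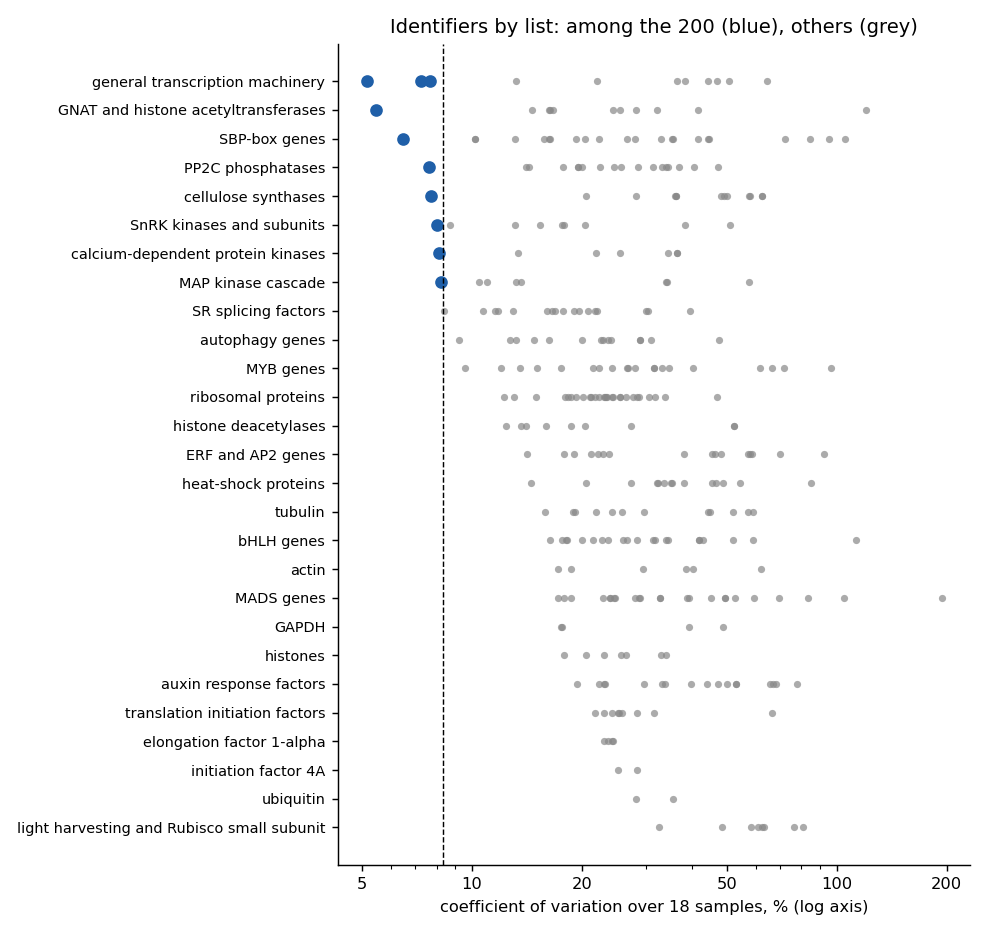
Coefficient of variation over 18 samples (percent, log axis) of the identifiers with a mean of at least 100 in each list, with those among the 200 in blue, others in grey and the limit of 8.34% as a dashed line. The general transcription machinery has 3 blue points, and the lists of usual reference genes have none.

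The usual reference genes that were listed lay outside the 200. Their lists were made from gene symbols, and usual reference genes of other kinds had no list. Unnamed identifiers among the 200 could therefore still be usual reference genes. None of the 30 identifiers in the 6 lists was included, and their median coefficient of variation was 26.98%, close to that of all identifiers. Gamma-tubulin tubg1 (GRMZM2G073888) was the steadiest with 15.8%, and the most abundant tubulin, tua4 (GRMZM2G152466), had 25.7%. The steadiest actin (GRMZM2G006765) had 17.2%, the most abundant one (GRMZM2G067985) 40.3%, and act1 (GRMZM2G126010) 61.9%. In the latter the ear signal was 3.52 times that of ear inflorescence.

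Among the GAPDH genes gpc3 (GRMZM2G071630) had 17.6% and the most abundant, GPC1 (GRMZM2G046804), 39.3%. The elongation factor 1-alpha identifiers lay together between elfa7 (GRMZM2G110509) with 23.0% and elfa2 (GRMZM2G149768) with 24.4%, the most abundant of them, EF1A (GRMZM2G153541), having 24.1%. The ubiquitin genes MUB6 (GRMZM2G118637) and MUB3 (GRMZM2G409726) had 28.2% and 35.6%. The initiation factor 4A genes tif-4A3 (GRMZM2G027995) and tif4A2 (GRMZM2G116034) had 25.1% and 28.4%. Of these 30 identifiers, many were far more abundant than any of the 200, EF1A for example with a mean of 184649.

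What variation the 200 had lay mostly between replicates. On the log2 scale the median share of a transcript's variance between replicates of a group was 68.8%, with 7.09% between the tissues and 18.3% between genotypes within a tissue. Over all 21833 the tissues took 67.6%, genotypes 6.12% and replicates 24.9%. The selection for low total variation used these same samples and favours a small tissue share, so the shares are a description. As they are parts of unlike totals, the genotype shares do not show a larger genotype effect in the 200. The largest group mean exceeded the smallest by a median of 1.12 times and at most 1.22 times, against a median of 1.84 over all. The library event 2 ear replicate 2 was the lowest of all 18 in 54 of the 200, and 12 of them lay more than 20% from their mean there, against 0 to 3 in any other library.

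Between control ear and control ear inflorescence, 160 of the 200 (80.0%) lay within 1.1-fold, against 9.90% of all 21833, and none was past 1.2-fold. The largest differences were those of GRMZM2G371721, with 1.19 times the inflorescence level in ear, GRMZM2G132796 with 1.18 and GRMZM2G415312 with 1.17. Of the 200, 109 were higher in ear. Because the selection used these samples, calls among the 200 are given as a description from which nothing is read. The threshold for a call was a raw p of 0.0001 in limma, a linear model with moderated variances fitted to all 76612 identifiers. Called were 0 of the 200 in control, where 13.8% of all identifiers were called, 0 in event 1 with 14.8% and 0 in event 2 with 7.87%. At a raw p under 0.05 the numbers were 0, 2 and 1, where 44.9%, 45.7% and 34.5% of all identifiers passed. Without moderation of the variances they were 24, 22 and 15. The share of all identifiers at that threshold was not calculated without moderation. On the recovered reads edgeR and DESeq2 also called 0 of the 200 in each genotype, with 13.2% to 21.1% of all called by edgeR and 11.2% to 18.9% by DESeq2.

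None of the 200 passed the same threshold between an event and the control, and few of all identifiers did. With limma, 0 of the 200 were called for event 1 in ear inflorescence (0.0574% of all identifiers called), 0 for event 2 in ear inflorescence (0.0666%), 0 for event 1 in ear (0.128%) and 0 for event 2 in ear (0.0444%). With shares this small, a count of 0 in 200 does not set the 200 apart. At a raw p under 0.05 the counts were 0, 1, 1 and 0, against 2.79%, 4.36%, 6.76% and 3.82% of all identifiers. On the recovered reads edgeR and DESeq2 called 0, but their shares of all identifiers were not calculated for these comparisons. The median size of the fitted log2 difference was 0.05 for each of these comparisons. Moderation gave the 200 a standard error of 0.13 at the median, against 0.09 from their own spread. Without moderation, 1 of the 200 was called between the tissues in event 1, where 10.1% of all were. Between events and control, in the order above, 2, 10, 10 and 6 of the 200 then had a raw p under 0.05.

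Transcripts chosen in some of the genotypes stayed steadier than most identifiers in the others. These sets differ from the 200 above, which share 147 identifiers with the choice in the events and 47 with that in the control. When the same rule was applied to the 12 event samples alone, its 200 transcripts had a median coefficient of variation of 8.07% in the 6 control samples, where all identifiers had 28.9%. Of them, 161 were in the steadiest 10% there and 199 in the steadier 50%. Where they were chosen, their median was 7.61%. The 200 chosen in the 6 control samples had a median of 4.53% there and 12.1% in the events, against 28.8% for all identifiers. In the events, 131 of them were in the steadiest 10% and 200 in the steadier 50%. The choice shared 26 identifiers between these separate sets of samples. The scaling of the deposited values used all 18 samples, so the sets are not wholly independent.

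On the deposited scale, the difference between the tissues was also tested in the samples left out of the choice, with limma fitted to those 6 samples alone. That scale was set with all 18 samples and is the one used for the choice, so the test is not wholly independent of it. The same was not done in RPM. Of the 200 chosen in the events, 0 were called between control ear and control ear inflorescence, where 18.2% of identifiers with a mean of at least 100 were called, and 45 (22.5%) had a raw p under 0.05, against 78.4%. Of the 200 chosen in the control, 0 were called in event 1, where 3.46% were, and 0 in event 2, where 3.31% were. At a raw p under 0.05 there were 18 and 28 of the 200, against 59.8% and 57.1%. The median size of the log2 difference in these transcripts was 0.11 in control against 0.72 over all, 0.12 in event 1 against 0.73 and 0.13 in event 2 against 0.53. Of the 200 tested in control, 24 passed a Benjamini-Hochberg adjusted p of 0.05 in limma, and 4 and 2 in events 1 and 2. The share of all identifiers at that threshold was not calculated for these fits. The transcripts chosen were thus not shown to be free of tissue differences.

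From one tissue to the other, fewer of the chosen transcripts stayed in the steadiest 10% than between genotypes. The comparisons are not alike, as each set of genotypes held both tissues and its spread over all identifiers includes the tissue difference. Whether this accounts for the lower counts was not tested. Chosen in the 9 ear inflorescence samples, 200 transcripts had a median coefficient of variation of 9.95% in ear against 13.5% for all, and 52 of them were in the steadiest 10% there. Chosen in the 9 ear samples, they had 11.99% in ear inflorescence against 18.8%, and 57 were in the steadiest 10%.

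**Figure D4:**
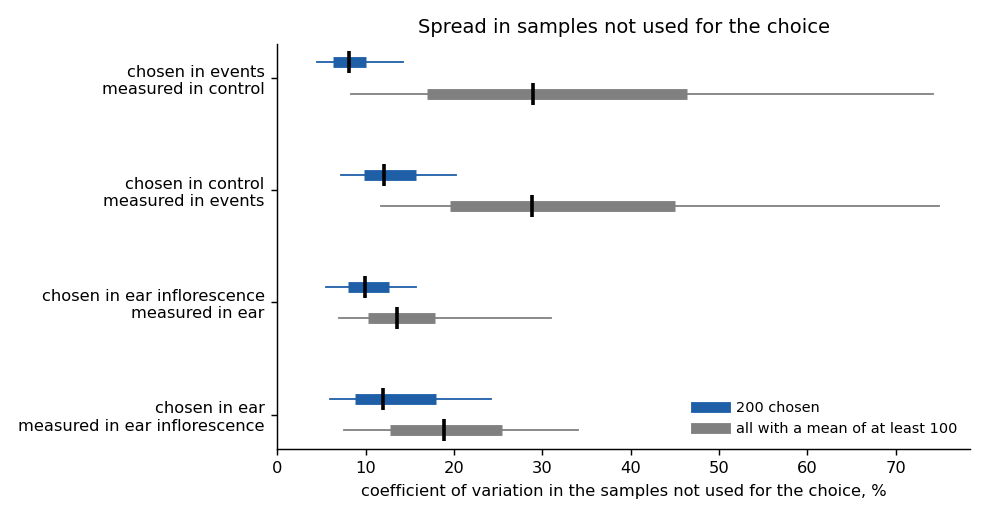
Coefficient of variation (percent) in the samples not used for the choice, for 200 transcripts chosen in the other samples (blue) and for all identifiers with a mean of at least 100 (grey), as median (tick), quartiles (bar) and 5th to 95th percentile (line). Medians are 8.07% against 28.9% for transcripts chosen in the events and measured in the control, and 9.95% against 13.5% for those chosen in ear inflorescence and measured in ear.

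The steadiness of the 200 was relative to the scaling of the samples. The deposited values were scaled with DESeq, which sets the typical transcript equal between samples. When the recovered reads were scaled instead to the total assigned in each library (reads per 1e6 assigned reads, RPM), none of the 200 was among the 200 steadiest and none was in the steadiest 10%. Their median coefficient of variation rose to 20.9%, against 30.3% for all identifiers. On that scale all 200 were lower in ear, at a median of 0.721 times the inflorescence level and between 0.628 and 0.811 times, while the median over all 21833 identifiers was 0.80 times. Limma then called 5 of the 200 between the tissues in control, 24 in event 1 and 0 in event 2, where 14.5%, 15.8% and 7.38% of all identifiers were called. At a raw p under 0.05 in limma, 196, 199 and 99 of the 200 passed in RPM. The share of all identifiers at that threshold was not calculated in RPM.

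Both scales differ from each other only by a factor for each sample. In ear the 100 most abundant identifiers held 24.3% to 25.9% of the assigned reads, and in ear inflorescence 12.6% to 22.1%. The 200 held 0.683% to 0.795% of the reads in ear and 0.878% to 1.32% in ear inflorescence. In RPM, the median deviation of the 200 from their own means on the log2 scale was -0.37 to -0.16 in the 9 ear samples and 0.00 to 0.59 in the 9 ear inflorescence samples, the highest being event 1 ear inflorescence replicate 1. In the deposited values it was -0.09 to 0.04 in all 18. Which scale reflects RNA per cell or per plant was not measured, and the use of spiked RNA is not given in the sources used here.

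**Figure D5:**
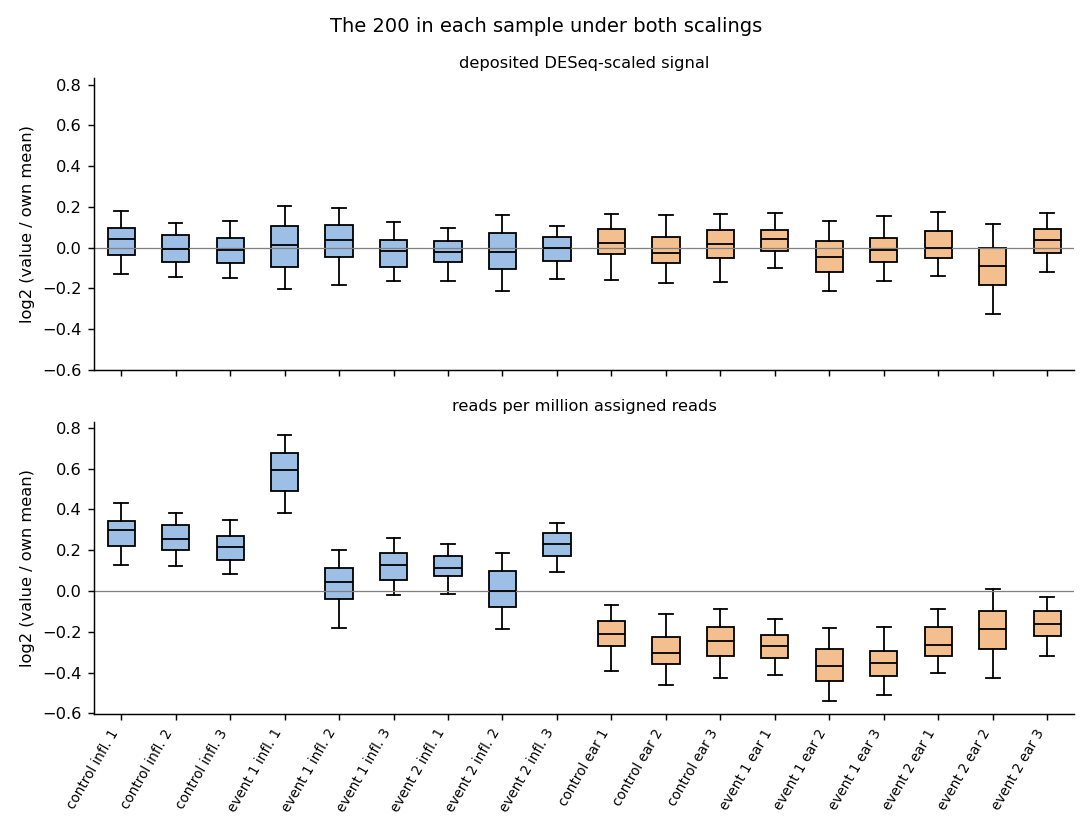
Deviation of each of the 200 from its own mean (log2 scale) in every sample, in the deposited values (top) and in RPM (bottom), as median, quartiles (box) and 5th to 95th percentile (whiskers), ear inflorescence in blue and ear in orange. Medians stay between -0.09 and 0.04 at the top, while at the bottom event 1 ear inflorescence replicate 1 is highest at 0.59 and event 1 ear replicate 2 lowest at -0.37.

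By the median coefficient of variation of the 200, TMM and quantile normalization lay between these, though single transcripts did not always do so. With TMM scaling, which like DESeq rests on the typical transcript, the median of the 200 was 7.83%, all were in the steadiest 10% and 149 were among the steadiest 200. With quantile normalization the median was 9.23%, with 152 in the steadiest 10% and 56 among the steadiest 200. The named ones differed in this. tbp1 had 5.27% and GNAT16 6.54% with quantile normalization, while cesa5 had 23.8% and tbp2 16.2%.

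In RPM the usual reference genes came out steadier than in the deposited values in 25 of 30 cases, with a median of 15.9%, and 17 of them varied less than the median of the 200. The steadiest was TUBB2 (GRMZM2G334899) with 8.43% against 19.1% in the deposited values. None of the 30 was among the 200 steadiest on that scale either. In ear, tbp1 had 1.03 times its inflorescence level in the deposited values and 0.739 times in RPM, whereas EF1A had 1.39 and 1.03 times.

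Ratios between transcripts do not change when a sample is scaled by 1 factor, as with DESeq, RPM and TMM. Quantile normalization can change them. The SD of the log2 ratio of one of the 200 to another, averaged over the others, was 0.12 to 0.17 with a median of 0.14. The 200 steadiest in RPM had a median of 0.14 among themselves as well. Each set was selected for low variation, so both values are a description. Against each other, the transcripts of one set varied with a median of 0.30, and in the deposited values all 200 of the set chosen in RPM were higher in ear, at a median of 1.37 times. Of all identifiers, 67 were in the steadiest 10% under the deposited scaling, RPM, TMM and quantile normalization alike, and none of them was one of the 200. The smallest maximum over these 4 scalings was that of GRMZM2G113596, with a mean of 3072 and coefficients of variation between 7.10% and 11.1%. It was chosen after its values were seen.

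A few of the 200 are not separate measurements. GRMZM2G307823 and GRMZM2G409627 had the same reads in every sample, with a mean of 501 each. GRMZM2G089860 and GRMZM5G812553 match 1 RefSeq gene, with means of 942 and 939, and differed by at most 10 reads in any sample. GRMZM2G112769 and GRMZM2G042623 also match 1 gene, with means of 949.9 and 3018.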

How the data were processed

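RNA of 18 samples (2 tissues, 3 genotypes, 3 biological replicates each) was sequenced with a read length of 50 bases. The authors used Bowtie 0.12.8 to map to the B73 transcriptome and ignored a read that mapped to more than 10 transcripts, otherwise counting it on each. They scaled the counts with DESeq. Their notes also name CASAVA 1.8.2. The deposited values are this normalized signal for 76612 identifiers, and they were used as deposited. The authors' own test was SAS Proc GLIMMIX.

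Reads were recovered by dividing each sample by the step between its low values (433951 of 433951 low values were whole within 0.1 of a step). They were used for RPM (reads per 1e6 assigned reads), TMM, counting error and the count tests only. Assigned totals were 27294141 to 52649731 reads per sample, and counting error covers no other error.

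Calls are from limma 3.58.1 (R 4.3.3) on log2(signal + 1), with 6 group means, a variance trend and all identifiers (prior degrees of freedom 6.85), at a raw p at or below 0.0001. edgeR 4.0.16, DESeq2 1.42.0, a replicate block, a pseudocount of 0.1, a minimum mean of 10, and leaving out each library were alternatives. Fits without moderation and on RPM were added after seeing the data. The tests were tried on simulated data. P-values measure the spread between biological replicates of 1 field season.

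The 200 transcripts and the lists were chosen with earlier results of these data known. Named in the text are the 10 steadiest, the 3 most abundant, the 200th and 201st, the steadiest of the 200 in each list that held any, the steadiest and most abundant in each list of usual reference genes, and the 3 with the largest tissue difference. The reference table holds names but no descriptions, so lists were made from gene symbols in place of the words planned, and 18 of the 19 of the 200 with a gene name were named in addition. A few listed items, 1 of these 19 among them, are not reported here. Roles are background knowledge. The table's assembly is not that of the files, so no coordinates or sequences are given.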

Additional observations from a re-analysis of the deposited data

How the results depend on the processing

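How many of the 200 were kept depended most on scaling and on the samples used. RPM kept 0, quantile normalization 56 and the median absolute deviation over the median 71. The largest over the smallest group mean kept 65, and taking off counting variance 119. Choosing in control samples only kept 47, in ear inflorescence samples only 44 and in ear samples only 28. Leaving out 1 library at a time kept 150 (without event 2 ear replicate 2) to 194. Leaving out event 1 ear inflorescence replicate 1 kept 155, and without both of these libraries 127 were kept. The other settings, TMM, a minimum mean of 10 or 500, the SD of log2 values and the event samples only, kept 147 to 200.

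The median coefficient of variation of the 200 was 20.9% in RPM and 9.23% with quantile normalization, against 7.57%. Among the 200, tissue calls in control numbered 1 with quantile normalization (11.9% of all identifiers called) and 5 in RPM (14.5%). In event 1 they numbered 2 with quantile normalization (13.1%), 24 in RPM (15.8%), 1 at an adjusted p under 0.05 in limma (38.5%) and 1 without moderation (10.1%). All other settings gave 0 calls in these and the remaining comparisons. The replicate numbers did not pair the samples: over 45 same-number pairs the correlation of deviations had a median of -0.002, 7 pairs were over 0.1, and 5 of 18 samples correlated best with their own number. The fit with a replicate block called 0. Choosing 100 or 400 transcripts in place of 200 left 23.2% to 83.0% of them in the steadiest 10% of the samples not used, within 1.5 times the value for 200 in each case. The promoter motif shares that were planned were not run, as no promoter sequences were used here. Identifiers with a mean of 100 to 200 had a median calculated counting error of 8.42%, beside the limit of 8.34% for the 200.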
